A study of Mus musculus with 16 samples.

Results

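The extracellular matrix genes described here are the collagen, laminin, ADAMTS and ADAMTS-like genes of the mouse, with fibronectin (Fn1), nidogens (Nid1, Nid2) and perlecan (Hspg2). They were measured by RNA sequencing in neural stem and progenitor cells with and without Kat7, the gene for the histone acetyltransferase KAT7, also called HBO1. Genes were chosen by name and by at least 10 counts in at least 4 of the 16 libraries. Of the 27179 genes counted, 25275 matched a symbol, 83 had such a name and 71 of these met the minimum. The 71 are 35 collagens, 10 laminins, 18 ADAMTS proteases, 4 ADAMTS-like genes and the 4 linkers named above. The other 12 were Adamtsl5, Adamts13, Lamb3, Col4a4, Col6a4, Col6a5, Col6a6, Col8a1, Col10a1, Col13a1, Col17a1 and Col24a1. Just inside the minimum lay Lama3, with 4 libraries, all of them intact differentiating, and just outside lay Col8a1 and Col4a4, with 3 libraries each. In 38 of the 71 the minimum was met in all 16 libraries, and all 71 entered the test. Another 11 would have missed it without the libraries of 1 group, among them Lama3, Lamc3, Adamts2, Adamts18, Adamts19, Col4a3, Col8a2, Col14a1, Col15a1 and Col19a1. A difference between that group and the others was built into the choice of these 11, so their fold changes against it are given as a description, with no p.

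Basement membranes are thin sheets of matrix built on networks of laminin trimers and type IV collagen, which nidogens and perlecan tie together. Fibrillar collagens form the fibrils of connective tissue, and fibril-associated collagens decorate them. ADAMTS proteases are secreted enzymes that trim procollagens or cleave proteoglycans such as aggrecan, brevican and versican, while ADAMTS-like proteins lack the catalytic domain. In the developing cortex, neural stem cells touch a basement membrane at the surface of the brain and express several laminin chains themselves, and most fibrillar collagen there is made by meningeal and vascular cells.

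Neurosphere cultures came from the cortex and ganglionic eminences of E14.5 foetuses, with isolates from 4 foetuses per genotype. Null cells were Kat7lox/lox NesCreT/+ and intact cells Kat7+/+ NesCreT/+, so a Cre transgene named for Nestin, a gene of neural progenitors, was carried by both genotypes. Proliferating cells had been kept as neurospheres for 3 passages and 3 days. Differentiating cells had been dissociated after passage 3 and held for 3 days in a cortical neuron medium on a laminin substrate, so medium, substrate and state cannot be told apart. Each of the 4 groups (intact proliferating, null proliferating, intact differentiating, null differentiating) held 4 libraries of polyadenylated RNA.

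The type IV collagen genes lie in pairs that start back to back, and the pairs on chromosomes 8 and X differed in opposite directions between genotypes, so the promoters of both pairs held by the RefSeq table of GRCm38.p6 are shown. Col4a1 (chr8:11312777-11313076, minus strand) and Col4a2 (chr8:11312555-11312854, plus strand) have start sites 21 bases apart, and their windows overlap. Those of Col4a5 (chrX:141475169-141475468, plus strand) and Col4a6 (chrX:141474027-141474326, minus strand) are 1343 bases apart, and that pair was added for contrast after its values were seen. Each window is printed 5′ to 3′ on the strand of its gene, 250 bases before to 50 bases after the start site. Capitals mark the GC box GGGCGG, the CCAAT box, the TATA motif TATAAA and the AP-1 motif TGACTCA, found on either strand.
Col4a1: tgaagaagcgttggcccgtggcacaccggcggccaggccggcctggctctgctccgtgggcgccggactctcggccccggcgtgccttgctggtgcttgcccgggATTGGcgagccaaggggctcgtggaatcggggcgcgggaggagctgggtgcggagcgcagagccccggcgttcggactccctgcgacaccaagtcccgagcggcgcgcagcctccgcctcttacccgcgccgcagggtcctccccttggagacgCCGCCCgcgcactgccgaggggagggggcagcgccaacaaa
Col4a2: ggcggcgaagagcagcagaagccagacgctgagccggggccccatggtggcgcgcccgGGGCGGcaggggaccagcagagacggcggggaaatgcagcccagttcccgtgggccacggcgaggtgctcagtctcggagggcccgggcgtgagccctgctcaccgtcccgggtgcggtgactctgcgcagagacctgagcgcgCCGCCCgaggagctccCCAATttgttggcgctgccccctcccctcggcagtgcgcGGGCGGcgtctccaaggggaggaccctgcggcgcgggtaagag
Col4a5: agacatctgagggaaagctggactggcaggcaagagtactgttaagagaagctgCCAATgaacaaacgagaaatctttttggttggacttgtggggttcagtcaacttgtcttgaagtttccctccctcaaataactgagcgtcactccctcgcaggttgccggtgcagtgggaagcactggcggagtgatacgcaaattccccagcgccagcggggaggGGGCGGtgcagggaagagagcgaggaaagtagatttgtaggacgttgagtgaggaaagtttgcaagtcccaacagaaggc
Col4a6: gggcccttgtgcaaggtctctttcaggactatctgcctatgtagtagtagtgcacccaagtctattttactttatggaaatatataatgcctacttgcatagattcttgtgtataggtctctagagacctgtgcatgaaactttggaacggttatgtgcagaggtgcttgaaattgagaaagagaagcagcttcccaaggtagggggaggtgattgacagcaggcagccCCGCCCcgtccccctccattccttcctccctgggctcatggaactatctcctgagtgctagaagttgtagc

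The Col4a1 window held 1 GC box and 1 CCAAT box, and the Col4a2 window 3 GC boxes and 1 CCAAT box. The Col4a5 window held 1 of each, and the Col4a6 window 1 GC box alone. The TATA and AP-1 motifs were in none of the 4. Over all 32851 windows of that table, the GC box was in 35.66%, the CCAAT box in 37.41%, the TATA motif in 13.62% and the AP-1 motif in 5.2%. The shared Col4a1 and Col4a2 promoter was rich in GC, at 74.0 and 73.7%, against a median of 52.7% over all windows, 52.7% for Col4a5 and 48.3% for Col4a6. These matches describe the letters of the windows only.

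Each library held between 16.8 and 47.9 M counts over 16322 to 18774 genes, and the 71 matrix genes took 0.102 to 0.186% of the counts. Kat7 was at 132 to 145 CPM (counts per M counted, scaled between libraries) in intact proliferating and 100.2 to 107 CPM in intact differentiating libraries, and had 8 and 1 counts over the 4 null libraries of each condition. Neural stem cell markers were present in every library, with Nes at 132 CPM or more, Sox2 at 298 or more and Fabp7 at 979 or more. Replicate 1 of intact proliferating and of intact differentiating cells correlated least with its own group (mean Pearson r of 0.989 and 0.982 over all genes, on log2 CPM with 1 added). In these bulk libraries, fewer cells of a type and less RNA per cell cannot be told apart. Values of 4 libraries are listed by replicate number, which has no order, and fold changes are log2 ± SE with n = 4 libraries per group.

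More of the matrix genes were called lower than higher in null cells. In proliferating cells, edgeR's quasi-likelihood test at an adjusted p under 0.05 called 34 of the 71 lower and 13 higher in null cells, where 19.7% and 19.0% of all 15177 genes tested were called lower and higher. In differentiating cells 34 were called lower and 10 higher, where 22.0% and 24.3% of all genes were. The median log2 fold change of the 71 was -1.03 in proliferating and -1.21 in differentiating cells, beside medians of -0.01 and 0.04 over all genes. With scaling by library size alone, which called 2234 genes higher and 3847 lower in proliferating and 2677 higher and 4123 lower in differentiating cells, the members split 10 to 34 and 9 to 35. The 11 genes that met the minimum only with the libraries of 1 group make up 5 of those called lower and 2 of those called higher in proliferating cells, and 8 and 1 in differentiating cells. The other 60 split into 29 lower and 11 higher in proliferating and 26 lower and 9 higher in differentiating cells, with median log2 fold changes of -0.72 and -0.52. The summed level went the other way in proliferating cells. It was 1430 to 1537 CPM in intact and 1550 to 1952 CPM in null proliferating libraries for the 71 together, and 417 to 526 and 695 to 958 CPM for the laminins. In differentiating libraries it was 1250 to 1417 CPM in intact and 1026 to 1287 CPM in null cells, which overlap.

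The direction was shared between conditions for most of the genes called in both. Of the 71, 27 were called lower in both conditions, 5 higher in both and 13 in neither, where 9.86%, 9.79% and 37.5% of all genes tested were. The 27 include Adamts2, Adamts18, Adamts19, Col14a1 and Col19a1, and the 5 include Col8a2. All of these met the minimum only with the libraries of 1 group. Adamts4, a protease that cleaves aggrecan and brevican, was the member called higher in proliferating and lower in differentiating null cells, and no member showed the reverse. Of all genes, 1.27% and 1.57% did so, and opposite calls were thus rare among all genes too. Without replicate 1 of both intact groups the split was 14 higher and 31 lower in proliferating and 13 higher and 35 lower in differentiating cells. The count of 13 higher in proliferating cells was 7 without null proliferating replicate 4, 7 without intact proliferating replicate 2 and 8 without intact proliferating replicate 3 or 4.

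By family, collagens were called lower in 17 and higher in 4 of 35 in proliferating cells, and lower in 19 and higher in 7 in differentiating cells. Laminins split the other way in proliferating cells, with 4 of 10 higher and 2 lower, and stood at 2 higher and 3 lower in differentiating cells. Of the 18 ADAMTS proteases, 12 were lower and 4 higher in proliferating and 9 lower and 1 higher in differentiating cells. Of the 4 ADAMTS-like genes, Adamtsl1 and Adamtsl3 were lower in both conditions and Adamtsl2 and Adamtsl4 were called in neither. The family counts include genes that met the minimum only with the libraries of 1 group. Among those genes, Col14a1, Col19a1, Adamts2, Adamts18 and Adamts19 count as lower in both conditions and Col8a2 as higher in both. Col4a3, Col15a1 and Lama3 count as lower in differentiating cells.

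**Figure D1:**
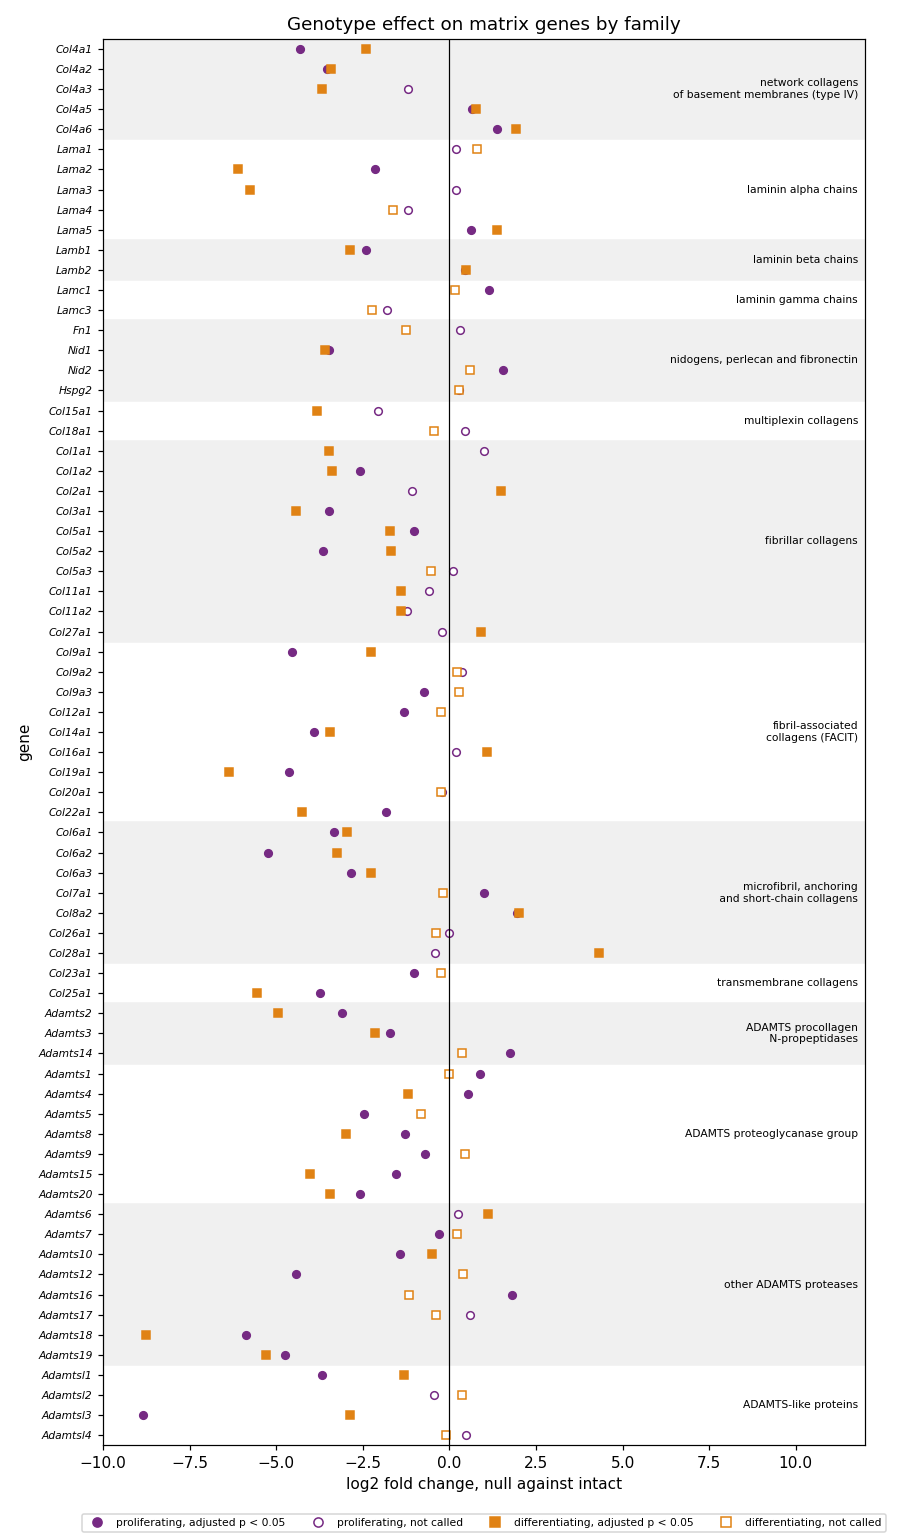
Log2 fold change of null against intact cells (x axis) for 70 of the 71 genes (y axis), ordered by family, with circles for proliferating and squares for differentiating cells. Filled symbols mark an edgeR adjusted p under 0.05. Most of them lie left of 0, with Adamtsl3 at -8.86 in proliferating and Adamts18 at -8.76 in differentiating cells the lowest, and Col28a1 at 4.32 the highest. The same fill is used for genes that met the minimum only with the libraries of 1 group, Adamts18 among them. Their differences against that group are a description.

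Levels per length (CPM per kilobase of the deposited gene model, RPKM) show which members carry most of the signal. Lamc1, the laminin gamma chain shared by most brain laminins, was the highest in proliferating cells of both genotypes, at a mean of 24.6 RPKM in intact and 54.0 in null cells. Behind it came Col9a3, Adamts7 and Lama5 in intact proliferating cells (19.6, 16.5 and 13.8 RPKM), and Adamts1, Lama5 and Adamts4 in null proliferating cells (24.0, 21.1 and 17.4 RPKM). The order in intact differentiating cells began with Adamts4, Col11a1, Lamc1 and Col9a3 (27.8, 18.7, 18.4 and 17.9 RPKM). Null differentiating cells had Col16a1, Col9a3, Lamc1 and Lamb2 first (24.7, 21.5, 20.4 and 14.8 RPKM). Many of the called members lay far lower: Col4a1, for instance, was at 2.06 RPKM in intact and 0.108 in null proliferating cells.

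Type IV collagens, the network formers of basement membranes, divided by gene pair. Col4a1 (chromosome 8, 11198423 to 11312889) and Col4a2 (chromosome 8, 11312805 to 11449287) encode the chains of the widespread α1α1α2 protomer and were lower in null cells in both conditions. Col4a1 was at 15.4, 14.4, 14.7 and 9.86 CPM in intact proliferating libraries, against 1.05, 0.987, 0.666 and 0.170 CPM in null libraries. All 4 null libraries lay below all 4 intact ones, and the fold change was -4.30 ± 0.64 (edgeR adjusted p = 1.1e-04). In differentiating cells Col4a1 was at 61.3, 19.8, 20.7 and 9.59 CPM in intact and 8.02, 4.11, 2.15 and 6.96 CPM in null libraries. The groups again did not overlap, with intact replicate 1 far above the others, and the fold change was -2.40 ± 0.54 (edgeR adjusted p = 0.00190), or -1.66 without intact differentiating replicate 1.

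Col4a2 was at 5.18, 3.95, 4.65 and 3.74 CPM in intact proliferating libraries, against 0.593, 0.247, 0.374 and 0.255 CPM in null libraries. The null libraries were all lower, and the fold change was -3.54 ± 0.75 (edgeR adjusted p = 0.00174). After differentiation its level was 44.2, 12.3, 17.0 and 5.99 CPM in intact and 2.75, 0.797, 0.362 and 3.54 CPM in null libraries. No null library reached an intact one, and intact replicate 1 was again the highest. The fold change was -3.43 ± 0.65 (edgeR adjusted p = 5.3e-04), or -2.68 without intact differentiating replicate 1.

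The X-linked pair behaved in the opposite direction. Col4a6 (chromosome X, 141165403 to 141474095), whose chain forms α5α5α6 protomers, was at 9.40, 2.11, 4.37 and 3.56 CPM in intact proliferating libraries, against 10.01, 11.9, 12.7 and 15.5 CPM in null libraries. All null libraries lay above all intact ones, although intact replicate 1 came close, and the fold change was 1.37 ± 0.42 (edgeR adjusted p = 0.0184). The call was lost without any 1 of intact proliferating replicates 2 or 4 (adjusted p 0.0537 to 0.0550). Differentiating libraries held 5.47, 3.91, 3.96 and 3.51 CPM in intact and 8.02, 10.2, 29.4 and 16.8 CPM in null cells, a fold change of 1.94 ± 0.42 (edgeR adjusted p = 0.00163) with no overlap. Col4a5 (chromosome X, 141475370 to 141689236), mutated in Alport syndrome, rose by 0.64 ± 0.23 (edgeR adjusted p = 0.0348) in proliferating and 0.75 ± 0.22 (edgeR adjusted p = 0.0128) in differentiating null cells, from means of 47.6 ± 16.3 and 42.5 ± 1.18 CPM (SD, n = 4) in intact cells. Both are small changes: the proliferating call was lost without any 1 of null proliferating replicates 2, 3 or 4 or intact proliferating replicates 2, 3 or 4 (adjusted p 0.0567 to 0.106), as it was with scaling by library size alone, and the differentiating call was lost without null differentiating replicate 3 (adjusted p = 0.0522).

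Col4a3 (chromosome 1, 82586921 to 82722059), a chain of the kidney glomerular network, was low in every group but intact differentiating cells, at 1.32, 2.35, 3.65 and 2.97 CPM there against 0.209, 0.0306, 0.213 and 0.319 CPM in null differentiating libraries, a log2 fold change of -3.69 given as a description. In proliferating cells it was at 0.485, 0.0541, 0 and 0.0900 CPM in intact and 0.105, 0.0617, 0 and 0.0850 CPM in null libraries, which overlap, with no call (-1.19 ± 1.03, edgeR adjusted p = 0.365).

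Laminins are trimers of an alpha, a beta and a gamma chain, and their chains did not move together. Lamb1 (chromosome 12, 31265146 to 31329644), the beta chain of the classical embryonic laminin, was at 19.0, 38.9, 38.7 and 43.5 CPM in intact proliferating libraries, against 4.19, 5.18, 5.08 and 11.7 CPM in null libraries. Every null library was below every intact one, although null replicate 4 stood above its group, and the fold change was -2.41 ± 0.51 (edgeR adjusted p = 0.00176). Differentiating cells had 24.3, 7.11, 6.49 and 3.78 CPM in intact and 1.92, 1.23, 0.916 and 1.74 CPM in null libraries. The separation was again full, with a fold change of -2.86 ± 0.55 (edgeR adjusted p = 5.7e-04), or -2.01 without intact differentiating replicate 1. Lamb2 (chromosome 9, 108479847 to 108490530), the other beta chain, was at 88.7, 62.6, 65.9 and 63.3 CPM in intact proliferating libraries, against 81.6, 97.1, 90.1 and 113 CPM in null libraries. Intact replicate 1 overlapped the null libraries, and the fold change was 0.45 ± 0.15 (edgeR adjusted p = 0.0287). This Lamb2 call was lost without any 1 of null proliferating replicates 2 or 4 or intact proliferating replicates 2, 3 or 4 (adjusted p 0.0573 to 0.0905).

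In differentiating cells Lamb2 was at 51.2, 58.9, 63.0 and 67.2 CPM in intact and 72.4, 67.2, 89.6 and 104 CPM in null libraries, with the highest intact and lowest null library nearly equal. Its fold change there was 0.47 ± 0.15 (edgeR adjusted p = 0.0183). That call was lost without any 1 of null differentiating replicate 4 or intact differentiating replicate 1 (adjusted p 0.0528 to 0.0707), and both Lamb2 calls were lost with scaling by library size alone. Lamc1 (chromosome 1, 153218922 to 153332786) was at 151, 189, 198 and 212 CPM in intact proliferating libraries, against 404, 373, 378 and 489 CPM in null libraries. All null libraries were higher, with a fold change of 1.13 ± 0.14 (edgeR adjusted p = 1.7e-05). After differentiation the groups overlapped, at 107, 139, 144 and 169.9 CPM in intact and 142, 146, 163 and 172 CPM in null libraries (0.15 ± 0.14, edgeR adjusted p = 0.375, no call).

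Among alpha chains, Lama5 (chromosome 2, 180176373 to 180225904), the alpha chain of laminins that support stem cell cultures, was at 133, 158, 165 and 173 CPM in intact proliferating libraries, against 236, 201, 203 and 318 CPM in null libraries. The null libraries were all higher, with a fold change of 0.61 ± 0.17 (edgeR adjusted p = 0.0112). In differentiating cells it was at 19.4, 25.9, 28.7 and 23.5 CPM in intact and 55.1, 51.2, 62.3 and 84.1 CPM in null libraries. The groups did not overlap, and the fold change of 1.38 ± 0.18 (edgeR adjusted p = 2.2e-05) was larger than in proliferating cells (interaction 0.77 ± 0.25, edgeR adjusted p = 0.0357). The interaction call was lost without any 1 of null proliferating replicates 1, 2 or 3 or intact proliferating replicates 2, 3 or 4 or null differentiating replicates 3 or 4 or intact differentiating replicates 1 or 4 (adjusted p 0.0516 to 0.0730). Lama1 (chromosome 17, 67697127 to 67822645), the alpha chain of embryonic basement membranes, was at 13.8, 9.31, 8.80 and 14.8 CPM in intact proliferating libraries, against 19.5, 13.2, 14.1 and 6.10 CPM in null libraries, and at 5.55, 4.65, 3.46 and 3.24 CPM in intact and 8.44, 3.86, 5.28 and 11.9 CPM in null differentiating libraries. Its groups overlapped in both conditions, and neither fold change was called (0.18 ± 0.36, edgeR adjusted p = 0.731 and 0.80 ± 0.37, edgeR adjusted p = 0.0877).

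Lama2 (chromosome 10, 26981285 to 27617191), the alpha chain of muscle, nerve and vascular laminin, was at 1.65, 0.541, 0.737 and 0.630 CPM in intact proliferating libraries, against 0.384, 0.123, 0.0416 and 0.198 CPM in null libraries. These low levels did not overlap, and the fold change was -2.15 ± 0.81 (edgeR adjusted p = 0.0440). This Lama2 call was lost without any 1 of null proliferating replicates 2, 3 or 4 or intact proliferating replicates 1, 3 or 4 (adjusted p 0.0526 to 0.132), and without null proliferating replicate 1 the fold change was -2.75. The gap was wider in differentiating cells, with 19.3, 8.08, 9.44 and 3.39 CPM in intact and 0.139, 0, 0.0426 and 0.406 CPM in null libraries, a fold change of -6.09 ± 0.79 (edgeR adjusted p = 2.1e-05), or -7.37 without null differentiating replicate 4. Lama3 (chromosome 18, 12333417 to 12583013), the alpha chain of skin laminin, was at 1.92, 4.17, 5.71 and 4.32 CPM in intact differentiating libraries and at 0.0697, 0.0306, 0.0852 and 0.0870 CPM in null ones, while proliferating libraries held 0.388, 0, 0 and 0.135 CPM (intact) and 0.105, 0.123, 0.166 and 0.198 CPM (null). Its log2 fold changes were 0.19 and -5.77, the latter given as a description since the intact differentiating libraries alone brought it past the count minimum. Lama4, the endothelial laminin alpha chain, and Lamc3 were not called in either condition (-1.20 and -1.64 for Lama4, -1.79 and -2.25 for Lamc3).

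The nidogens, which bridge laminin and type IV collagen, went in opposite directions in proliferating cells. Nid1 (chromosome 13, 13437602 to 13512275) was at 6.54, 5.20, 4.61 and 3.87 CPM in intact proliferating libraries, against 0.279, 0.185, 0.374 and 0.822 CPM in null libraries. The groups were far apart, with a fold change of -3.49 ± 0.45 (edgeR adjusted p = 2.9e-05), or -4.11 without null proliferating replicate 4. In differentiating cells Nid1 was at 30.3, 28.4, 9.90 and 30.8 CPM in intact and 2.06, 1.47, 1.68 and 3.04 CPM in null libraries. Intact replicate 3 was the lowest of its group and still above every null library, and the fold change was -3.59 ± 0.39 (edgeR adjusted p = 5.1e-06). Nid2 (chromosome 14, 19751257 to 19811787) was at 13.0, 12.6, 12.1 and 13.1 CPM in intact proliferating libraries, against 36.2, 35.8, 29.7 and 47.7 CPM in null libraries. All null libraries were higher, at 1.56 ± 0.27 (edgeR adjusted p = 3.8e-04). Differentiating libraries overlapped, with 13.7, 7.19, 4.85 and 4.53 CPM in intact and 10.1, 11.7, 11.3 and 12.9 CPM in null cells and no call (0.60 ± 0.27, edgeR adjusted p = 0.0781).

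Hspg2 (chromosome 4, 137468751 to 137570630), which encodes perlecan, was at 68.6, 74.9, 71.8 and 101 CPM in intact proliferating libraries, against 124, 77.1, 68.1 and 117 CPM in null libraries, and at 14.4, 15.8, 13.2 and 13.9 CPM in intact and 16.2, 12.7, 13.9 and 26.4 CPM in null differentiating libraries. The genotypes overlapped in both conditions, with fold changes of 0.29 ± 0.22 (edgeR adjusted p = 0.331) and 0.27 ± 0.23 (edgeR adjusted p = 0.365), neither called. Fn1 (chromosome 1, 71585473 to 71653280), the gene of fibronectin, was at 38.5, 17.8, 19.3 and 25.7 CPM in intact proliferating libraries, against 41.3, 33.2, 31.1 and 20.0 CPM in null libraries. In the differentiating state it was at 163, 38.2, 44.2 and 23.9 CPM in intact and 16.5, 27.7, 45.5 and 23.7 CPM in null libraries. Intact replicate 1 alone stood far above the rest, and neither fold change was called (0.31 ± 0.50, edgeR adjusted p = 0.662 and -1.24 ± 0.50, edgeR adjusted p = 0.0522).

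Multiplexins are collagens of basement membrane zones, and their ends are cut off to give anti-angiogenic fragments. Col15a1 (chromosome 4, 47207655 to 47313167) was at 0.485, 0.487, 0.322 and 0.180 CPM in intact proliferating libraries, against 0.105, 0, 0.0416 and 0.142 CPM in null libraries. Every null library was lower, but the fold change of -2.08 ± 1.10 (edgeR adjusted p = 0.138) was not called at these few counts. In differentiating cells, 6.12, 1.01, 2.02 and 0.689 CPM in intact and 0.523, 0, 0.0639 and 0.145 CPM in null libraries did not overlap and gave -3.82 as a description, or between -5.05 and -2.82 without null differentiating replicate 1 or intact differentiating replicate 1. Col18a1, the source of endostatin, was not called (0.46 and -0.44).

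**Figure D2:**
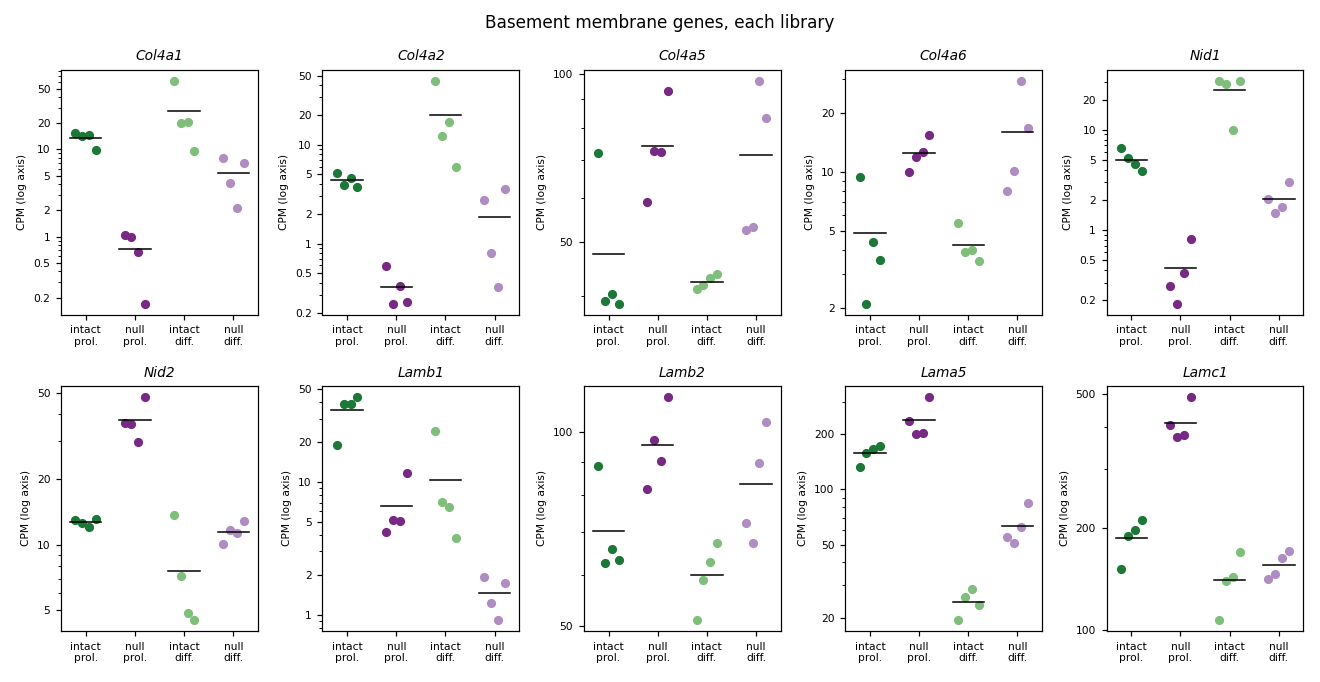
CPM of 10 basement membrane genes in each library (y axis, log scale, a separate range per panel) for the 4 groups (x axis; prol., proliferating; diff., differentiating), with points for libraries and lines for group means. Col4a1, Col4a2, Nid1 and Lamb1 lie lower in null cells in both conditions, while Col4a6 and Lama5 lie higher in both and Lamc1 and Nid2 are higher in null proliferating cells.

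Members that neighbour each other on a chromosome mostly shared their call. On the RefSeq positions of 70 of the 71 genes, 7 pairs of genes next in line lay at most 100000 bases apart or overlapped. In proliferating cells both genes of 6 of the 7 pairs had the same call, and in differentiating cells both genes of all 7 did. With 47.9% of the 71 genes called lower in each condition, members that are not neighbours also share calls. How often they do was not counted. Col19a1, in 1 of these pairs, met the minimum only with the libraries of 1 group. Lower in both conditions were Col4a1 with Col4a2 on chromosome 8, Col9a1 with Col19a1 and Col3a1 with Col5a2 on chromosome 1, Col6a2 with Col6a1 on chromosome 10 and Adamts15 with Adamts8 on chromosome 9. Col4a6 with Col4a5 on the X chromosome was higher in both. The exception was Adamts1, higher, beside Adamts5, lower, in proliferating cells on chromosome 16, and neither was called in differentiating cells. The count was not tested, and Col4a1 and Col4a2 overlap by 85 bases, where reads cannot be assigned unless strand was used in counting.

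Fibrillar collagens were lower in null differentiating cells in 7 of 10 genes, Col1a1, Col1a2, Col3a1, Col5a1 and Col5a2 among them. Col1a1 (chromosome 11, 94936224 to 94953042), a chain of type I collagen, was at 3.00, 1.84, 1.80 and 1.85 CPM in intact proliferating libraries, against 4.95, 4.13, 4.12 and 3.88 CPM in null libraries. The null libraries were all higher, though the fold change was not called (1.01 ± 0.58, edgeR adjusted p = 0.182). In differentiating cells the order was the other way, with 40.6, 17.9, 9.36 and 4.05 CPM in intact and 2.16, 0.827, 0.745 and 2.81 CPM in null libraries. The fold change was -3.47 ± 0.60 (edgeR adjusted p = 2.4e-04), or -2.68 without intact differentiating replicate 1, and differed from that in proliferating cells (interaction -4.48 ± 0.82, edgeR adjusted p = 0.00151, or -3.69 without intact differentiating replicate 1). Its partner chain Col1a2 (chromosome 6, 4505618 to 4541543) was at 2.18, 1.57, 1.66 and 1.94 CPM in intact proliferating libraries, against 0.314, 0.123, 0.374 and 0.340 CPM in null libraries, a fold change of -2.59 ± 0.79 (edgeR adjusted p = 0.0165) with no overlap. After differentiation Col1a2 was at 40.0, 16.1, 9.32 and 4.38 CPM in intact and 2.55, 0.766, 0.362 and 2.99 CPM in null libraries, at -3.41 ± 0.66 (edgeR adjusted p = 6.4e-04), or -2.59 without intact differentiating replicate 1.

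Col3a1 (chromosome 1, 45311538 to 45349706), the type III chain of soft connective tissue, had means of 3.55 ± 0.698 CPM in intact and 0.348 ± 0.260 CPM in null proliferating cells (SD, n = 4), and 61.5, 21.8, 9.82 and 5.93 CPM in intact and 1.36, 0.0306, 0.0213 and 3.22 CPM in null differentiating libraries. Its fold changes were -3.48 ± 1.14 (edgeR adjusted p = 0.0246) and -4.44 ± 0.997 (edgeR adjusted p = 0.00198), and the differentiating value was between -5.84 and -3.45 without null differentiating replicate 4 or intact differentiating replicate 1. The proliferating call was lost without any 1 of null proliferating replicates 1, 3 or 4 (adjusted p 0.0501 to 0.0713). Col5a2 (chromosome 1, 45374331 to 45503282), a type V chain that starts fibrils, stood, in intact proliferating libraries, at 67.2, 50.8, 54.9 and 57.7 CPM against 3.45, 4.75, 5.91 and 4.14 CPM in null ones. The groups were far apart, with a fold change of -3.66 ± 0.37 (edgeR adjusted p = 3.5e-06). In differentiating cells they were closer, at 16.7, 17.5, 13.8 and 15.5 CPM in intact and 4.81, 2.18, 2.81 and 10.1 CPM in null libraries, a fold change of -1.68 ± 0.34 (edgeR adjusted p = 0.001004), or -2.28 without null differentiating replicate 4.

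Col5a1 (chromosome 2, 27886381 to 28039510), the other main type V chain, was at 25.9, 23.8, 26.3 and 27.1 CPM in intact proliferating libraries, against 13.6, 14.6, 12.6 and 9.95 CPM in null libraries, and at 16.8, 14.4, 12.7 and 14.4 CPM in intact and 4.92, 3.00, 3.64 and 6.20 CPM in null differentiating libraries. The separation was full in both conditions, with fold changes of -1.03 ± 0.18 (edgeR adjusted p = 4.5e-04) and -1.72 ± 0.19 (edgeR adjusted p = 5.1e-06). Col11a1 and Col11a2, type XI chains of cartilage fibrils, fell in null differentiating cells (-1.41, adjusted p = 0.00574, and -1.40, adjusted p = 0.0109, edgeR). Col2a1, the main collagen of cartilage, and Col27a1 rose there, at 1.48 ± 0.46 (edgeR adjusted p = 0.0157) and 0.92 ± 0.19 (edgeR adjusted p = 0.00118). The Col2a1 call was lost without null differentiating replicate 4 (adjusted p = 0.0558). Col5a3 was not called in either condition.

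Fibril-associated collagens, which sit on fibrils and do not form them, were lower in null cells in 6 of 9 genes when proliferating and 4 of 9 when differentiating. Both the 6 and the 4 include Col14a1 and Col19a1, which met the minimum only with the libraries of 1 group. Col9a1 (chromosome 1, 24177589 to 24252738), a type IX chain, was at 6.54, 2.06, 2.53 and 1.04 CPM in intact proliferating libraries, against 0.0698, 0.123, 0.166 and 0.142 CPM in null libraries. In differentiating libraries its level was 24.4, 50.3, 38.8 and 61.7 CPM in intact and 8.09, 7.51, 10.2 and 10.3 CPM in null libraries. Both pairs of groups were apart, with fold changes of -4.56 ± 0.63 (edgeR adjusted p = 5.2e-05), or -3.86 without intact proliferating replicate 1, and -2.28 ± 0.39 (edgeR adjusted p = 2.3e-04). Col9a3 (chromosome 2, 180598102 to 180622192), which joins Col9a1 in type IX trimers, was at 60.3, 58.6, 60.7 and 43.8 CPM in intact proliferating libraries, against 31.0, 37.7, 40.7 and 25.9 CPM in null libraries. It was lower by 0.72 ± 0.18 (edgeR adjusted p = 0.00558) on the log2 scale and not called in differentiating cells (34.1, 52.2, 56.3 and 60.8 CPM in intact and 53.8, 57.8, 74.9 and 58.5 CPM in null libraries, 0.27 ± 0.18, edgeR adjusted p = 0.235). Col9a2 was called in neither condition (0.36 and 0.22).

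Col16a1 (chromosome 4, 130047817 to 130099277), a minor fibril-associated collagen, was alone in its family in being called higher. It was at 30.8, 62.4, 71.5 and 77.4 CPM in intact and 108, 112, 176 and 118 CPM in null differentiating libraries, a fold change of 1.09 ± 0.23 (edgeR adjusted p = 0.00122) with no overlap, while proliferating libraries held 37.5, 34.8, 35.1 and 25.6 CPM (intact) and 34.9, 37.3, 39.5 and 38.2 CPM (null), with no call (0.17 ± 0.23, edgeR adjusted p = 0.583). Col12a1 (chromosome 9, 79598987 to 79721141) was at 13.1, 14.4, 16.3 and 16.2 CPM in intact proliferating libraries, against 9.14, 4.501, 5.16 and 5.22 CPM in null libraries, lower by 1.31 ± 0.42 (edgeR adjusted p = 0.0223) on the log2 scale. This Col12a1 call was lost without any 1 of null proliferating replicates 2, 3 or 4 (adjusted p 0.0569 to 0.0605). In differentiating cells Col12a1 was at 11.2, 28.9, 40.2 and 38.6 CPM in intact and 9.76, 28.2, 41.9 and 19.5 CPM in null libraries, which overlapped (-0.25 ± 0.40, edgeR adjusted p = 0.632, no call). Col22a1 (chromosome 15, 71795795 to 72150979), a collagen of tissue junctions, was at 0.824, 0.866, 0.783 and 0.630 CPM in intact proliferating libraries, against 0.140, 0.247, 0.291 and 0.198 CPM in null libraries, and at 1.89, 1.15, 0.699 and 1.23 CPM in intact and 0, 0.0306, 0.106 and 0.0870 CPM in null differentiating libraries. Neither pair of groups overlapped, with fold changes of -1.83 ± 0.45 (edgeR adjusted p = 0.00423) and -4.26 ± 0.49 (edgeR adjusted p = 6.4e-06).

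Col19a1 and Col14a1, both fibril-associated, had few counts and fewer in null cells in both conditions. Col19a1 had 3 against 66 counts over 4 libraries each, or 3.62% of the intact level (95% counting interval 0.729 to 11.1%) in null and intact proliferating cells, and 1 against 116 counts over 4 libraries each, or 0.730% of the intact level (95% counting interval 0.0183 to 4.15%) in differentiating ones. Col14a1 had 1 against 17 counts over 4 libraries each, or 4.69% of the intact level (95% counting interval 0.112 to 29.9%) in proliferating cells. The intact proliferating libraries held 0.678, 0, 0.0921 and 0.0450 CPM of it, so replicate 1 carried most of these counts. The proliferating Col14a1 call was lost without any 1 of null proliferating replicates 1, 2, 3 or 4 or intact proliferating replicate 1 (adjusted p 0.0504 to 0.293), and its fold change in differentiating cells, as a description, was -3.45. Col20a1 was called in neither condition. Counting intervals cover counting error only.

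The 3 type VI genes, whose products form beaded microfibrils, were lower in null cells in both conditions. Col6a2 (chromosome 10, 76595756 to 76623630) was at 0.969, 0.812, 0.599 and 1.22 CPM in intact proliferating libraries, against 0.0349, 0, 0.0416 and 0 CPM in null libraries, with 2 against 75 counts over 4 libraries each, or 2.13% of the intact level (95% counting interval 0.253 to 7.95%). After differentiation it was at 6.95, 3.35, 1.13 and 0.929 CPM in intact and 0.418, 0.0919, 0.106 and 0.696 CPM in null libraries, which did not overlap, at -3.25 ± 0.69 (edgeR adjusted p = 0.00134), or between -3.95 and -2.47 without null differentiating replicate 4 or intact differentiating replicate 1. Fold changes of Col6a1 were -3.33 ± 0.89 (edgeR adjusted p = 0.00702), or -4.49 without null proliferating replicate 2, and -2.97 ± 0.66 (edgeR adjusted p = 0.00174), or between -3.60 and -2.37 without null differentiating replicate 4 or intact differentiating replicate 1. Those of Col6a3 were -2.85 ± 0.91 (edgeR adjusted p = 0.0200) and -2.26 ± 0.63 (edgeR adjusted p = 0.00847), and the differentiating value was -1.47 without intact differentiating replicate 1. The proliferating Col6a3 call was lost without null proliferating replicate 3 (adjusted p = 0.0506), and its fold change there was -3.52 without null proliferating replicate 1.

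Higher in null cells were 3 genes of other short or anchoring collagens. Col28a1 (chromosome 6, 7997100 to 8193709), related to type VI and expressed around glia of peripheral nerves, was at 0.601, 0.856, 1.09 and 1.35 CPM in intact and 22.5, 23.5, 16.1 and 15.7 CPM in null differentiating libraries. This was the largest rise among the 71 genes in either genotype contrast, 4.32 ± 0.59 (edgeR adjusted p = 3.4e-05). In proliferating cells Col28a1 was at 0.630, 3.57, 4.24 and 4.05 CPM in intact and 0.872, 1.29, 1.66 and 5.30 CPM in null libraries, which overlap (-0.42 ± 0.54, edgeR adjusted p = 0.571, no call). Col8a2 (chromosome 4, 126286794 to 126314330), a short-chain collagen of the corneal basement membrane, was at 0.0969, 0.0541, 0.0461 and 0.0900 CPM in intact proliferating libraries, against 0.279, 0.370, 0.291 and 0.255 CPM in null libraries, and at 0.544, 0.298, 0.311 and 0.240 CPM in intact and 1.53, 0.674, 1.30 and 2.15 CPM in null differentiating libraries. The null libraries were higher without overlap in both, at 1.96 ± 0.53 (edgeR adjusted p = 0.00729) in proliferating cells, under 10 counts in each library, and at 1.996 in differentiating cells, as a description. Col7a1 (chromosome 9, 108953586 to 108984875), the anchoring fibril collagen, was at 2.42, 0.704, 1.01 and 0.945 CPM in intact proliferating libraries, against 2.69, 2.10, 2.29 and 3.03 CPM in null libraries. Intact replicate 1 overlapped the null libraries, with a fold change of 0.99 ± 0.34 (edgeR adjusted p = 0.0324), and 5.47, 4.21, 3.81 and 4.20 CPM in intact and 5.54, 4.57, 2.56 and 2.99 CPM in null differentiating libraries gave no call (-0.18 ± 0.32, edgeR adjusted p = 0.668). This Col7a1 call was lost without any 1 of null proliferating replicates 1 or 4 or intact proliferating replicates 2, 3 or 4 (adjusted p 0.0629 to 0.0950) and with scaling by library size alone.

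Transmembrane collagens are anchored in the cell surface and can be shed. Col25a1 (chromosome 3, 130180358 to 130599884), which neurons make and whose shed part binds amyloid, was at 1.502, 1.24, 1.15 and 1.49 CPM in intact proliferating libraries, against 0.105, 0.0617, 0.166 and 0.0567 CPM in null libraries, and at 6.78, 2.23, 4.19 and 1.14 CPM in intact and 0.0349, 0, 0 and 0.261 CPM in null differentiating libraries. It was lower in every null library, at -3.74 ± 0.81 (edgeR adjusted p = 0.00189) and -5.57 ± 0.80 (edgeR adjusted p = 4.5e-05), the latter -8.01 without null differentiating replicate 4. Col23a1 (chromosome 11, 51289679 to 51583925) was at 2.13, 1.35, 1.34 and 1.35 CPM in intact proliferating libraries, against 0.523, 0.617, 0.582 and 1.22 CPM in null libraries, lower by 1.03 ± 0.34 (edgeR adjusted p = 0.0256) on the log2 scale, and at 7.47, 3.39, 4.58 and 2.73 CPM in intact and 4.05, 3.68, 3.94 and 3.80 CPM in null differentiating libraries, with overlap and no call (-0.23 ± 0.30, edgeR adjusted p = 0.550). The Col23a1 call was lost without any 1 of null proliferating replicates 1, 2 or 3 or intact proliferating replicate 1 (adjusted p 0.0597 to 0.0759).

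Among intact differentiating libraries, replicate 1 was highest and replicate 4 lowest for Col1a1, Col1a2, Col3a1, Col6a1, Col6a2, Col6a3, Col15a1, Col4a1, Col4a2, Lama2, Lamb1 and Fn1. Members of other families had the same order, among them Adamts1 (29.4, 11.2, 10.2 and 7.19 CPM), Adamts3, Adamts15, Adamts20, Adamtsl1 and Col25a1. Other members had replicate 1 lowest, among them Col11a1 (63.2, 162, 120 and 198 CPM), Col9a1, Col9a2, Col9a3, Col12a1, Col16a1, Adamts4, Adamts5, Adamts9 and Lamc1. Replicates 1 and 4 also correlated least within that group (Pearson r of 0.948 over the genes tested). The share of all genes in either order was not counted. Dcn and Lum, from a list of 12 fibroblast and meningeal markers, had replicate 1 highest. Dcn was at 8.41, 3.57, 1.36 and 1.41 CPM and Lum at 6.55, 2.46, 1.13 and 0.839 CPM in intact differentiating libraries. Prrx1, on the same list, ran the other way and was lowest in replicate 1, at 26.1 CPM. The order of the other genes on that list was not compared. In null differentiating libraries Dcn was at 0.279, 0, 0 and 0.812 CPM and Lum at 0.384, 0, 0 and 0.638 CPM, so both were at 0 in null replicates 2 and 3, where Col3a1 was at 0.0306 and 0.0213 CPM. Of the 12 genes on that marker list 6 were tested, and 1 rose and 3 fell in null differentiating cells (Prrx1 1.19 ± 0.17, edgeR adjusted p = 6.4e-05, Dcn -3.78 ± 0.91, edgeR adjusted p = 0.00323, Lum -3.47 ± 0.92, edgeR adjusted p = 0.00596, Foxc1 -2.30 ± 0.89, edgeR adjusted p = 0.0424). In proliferating cells Prrx1 rose (1.09) and Foxd1 and Dcn fell (-4.60 and -4.98). The list's summed level, of which Prrx1 made up 26.1 CPM in intact differentiating replicate 1 and 132 CPM in null proliferating replicate 1, its lowest and highest levels, was 55.1 to 69.4 CPM in intact and 98.1 to 134 CPM in null proliferating libraries, and 72.9 to 89.5 CPM in intact and 89.8 to 134 CPM in null differentiating ones. Twist1, Twist2, Foxc2, Foxd1 and Slc22a6 were under 1 CPM in all 16 libraries. The part of these cells in the collagen results was not tested.

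Most endothelial, pericyte and smooth muscle, and microglia and blood markers were under 1 CPM in all 16 libraries. Of 12 endothelial markers, 8 (Pecam1, Cdh5, Cldn5, Tek, Tie1, Erg, Emcn and Esam) were under 1 CPM in all 16 libraries, and the summed level was 6.35 to 9.69, 4.44 to 5.41, 4.58 to 6.02 and 1.49 to 2.23 CPM in intact proliferating, null proliferating, intact differentiating and null differentiating libraries. Kdr, the endothelial gene called, was lower in null cells in both conditions (-3.65 and -3.31). Of 14 pericyte and smooth muscle markers 9 were under 1 CPM throughout, Kcnj8 and Myh11 among them, and Higd1b had no count. The summed level of that list was 115 to 188, 201 to 374, 88.2 to 134 and 238 to 328 CPM in the same order of groups, with Acta2, which is also expressed outside smooth muscle, higher in null cells in both conditions (4.25 and 2.85) and Vtn lower in differentiating ones (-3.66). All 12 microglia and blood markers were under 1 CPM. Neural stem cell markers were higher in 4 of 11 and lower in 1 in null proliferating cells, and higher in 8 with none lower in null differentiating cells. Of the 5 choroid plexus markers tested, 1 was lower in proliferating and 2 in differentiating null cells, with none higher. Astrocyte markers rose in null cells (4 of 10 in proliferating and 7 of 10 in differentiating cells, none lower), and oligodendrocyte lineage markers fell (8 and 9 of 12, none higher). Neuron markers were lower in 4 of 12 in proliferating and 7 of 12 in differentiating cells, with 0 and 1 higher. Whether these cell types account for any matrix gene was not tested.

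**Figure D3:**
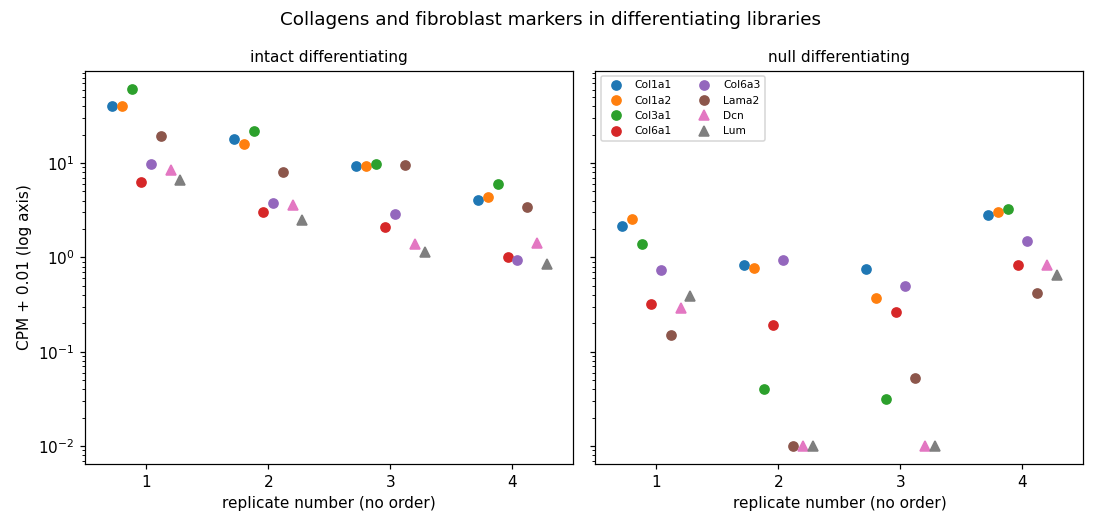
CPM + 0.01 (y axis, log scale) of 6 matrix genes (circles) and the markers Dcn and Lum (triangles) in each differentiating library (x axis, replicate number). Intact replicate 1 holds the highest values of each gene among intact libraries, and Dcn and Lum sit at 0 in null replicates 2 and 3.

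Adamts2 (chromosome 11, 50602085 to 50807573), Adamts3 and Adamts14 encode the procollagen N-propeptidases, which cut the amino-terminal propeptide from fibrillar procollagens. Adamts3 (chromosome 5, 89673841 to 89883668), which also activates VEGF-C, had the highest level of them per length in intact proliferating cells (6.34 RPKM, against 3.05 for Adamts14 and 0.0741 for Adamts2). It was at 63.4, 44.98, 41.8 and 44.2 CPM in intact proliferating libraries, against 23.9, 14.1, 14.3 and 7.20 CPM in null libraries. Intact replicate 1 was highest, and all null libraries were lower, at -1.71 ± 0.37 (edgeR adjusted p = 0.00188). Differentiating cells had 34.7, 15.6, 17.7 and 8.99 CPM in intact and 3.84, 4.11, 4.02 and 5.39 CPM in null libraries, again apart, at -2.15 ± 0.38 (edgeR adjusted p = 3.1e-04). Adamts2 was low, at 0.581, 0.162, 0.230 and 0.135 CPM in intact proliferating libraries, against 0, 0, 0.0416 and 0.0567 CPM in null libraries, with 3 against 23 counts over 4 libraries each, or 10.4% of the intact level (95% counting interval 1.998 to 34.4%). In the differentiating state it was at 1.69, 0.931, 1.13 and 0.989 CPM in intact and 0, 0.0613, 0.0639 and 0 CPM in null libraries, a fold change of -4.94 as a description, or -5.55 without null differentiating replicate 3.

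Adamts14 (chromosome 10, 61197112 to 61273419) moved the other way. It was at 12.3, 15.9, 16.3 and 18.7 CPM in intact proliferating libraries, against 47.1, 54.4, 49.6 and 63.5 CPM in null libraries, and the null libraries were all higher, at 1.76 ± 0.15 (edgeR adjusted p = 8.6e-07). Differentiating libraries of both genotypes were under 1 CPM, at 0.258, 0.112, 0.272 and 0.210 CPM (intact) and 0.279, 0.337, 0.213 and 0.290 CPM (null), with overlap and no call (0.35 ± 0.29, edgeR adjusted p = 0.446). The genotype effect differed between conditions (interaction -1.41 ± 0.33, edgeR adjusted p = 0.00702).

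The proteoglycanase group cleaves lecticans, the aggregating proteoglycans of brain and cartilage, and 5 of its 7 genes were lower in null proliferating cells. Adamts5 (chromosome 16, 85858157 to 85901125), a main aggrecanase, was at 7.07, 5.68, 6.03 and 5.49 CPM in intact proliferating libraries, against 1.08, 0.863, 1.46 and 0.992 CPM in null libraries. All null libraries were lower, at -2.46 ± 0.43 (edgeR adjusted p = 4.0e-04). In differentiating libraries its level was 7.44, 17.7, 17.0 and 18.7 CPM in intact and 6.21, 15.2, 9.77 and 2.99 CPM in null libraries, which overlapped (-0.83 ± 0.37, edgeR adjusted p = 0.0823, no call). Adamts15 (chromosome 9, 30899155 to 30922452) was at 0.921, 1.41, 0.691 and 0.945 CPM in intact proliferating libraries, against 0.419, 0.370, 0.208 and 0.340 CPM in null libraries, and at 9.64, 6.403, 8.19 and 5.75 CPM in intact and 0.139, 0.123, 0.447 and 1.10 CPM in null differentiating libraries. The groups were apart in both conditions, and the fold change was -1.55 ± 0.54 (edgeR adjusted p = 0.0336) in proliferating and -4.02 ± 0.50 (edgeR adjusted p = 1.6e-05) in differentiating cells, the latter -4.87 without null differentiating replicate 4. The proliferating call was lost without any 1 of null proliferating replicates 2, 3 or 4 or intact proliferating replicates 2 or 4 (adjusted p 0.0552 to 0.0925).

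Adamts20 (chromosome 15, 94268314 to 94432074), needed for melanoblast survival in the mouse, was at 1.65, 2.27, 1.84 and 1.76 CPM in intact proliferating libraries, against 0.140, 0.432, 0.458 and 0.255 CPM in null libraries, and at 5.32, 2.68, 3.88 and 2.49 CPM in intact and 0.349, 0.276, 0.170 and 0.522 CPM in null differentiating libraries. Null libraries were lower throughout, at -2.59 ± 0.40 (edgeR adjusted p = 1.4e-04) and -3.45 ± 0.38 (edgeR adjusted p = 5.6e-06). Adamts8 (chromosome 9, 30942562 to 30963838), next to Adamts15 on chromosome 9, was at 2.67, 3.25, 2.86 and 4.32 CPM in intact proliferating libraries, against 1.15, 1.05, 2.21 and 0.992 CPM in null libraries, and at 3.78, 2.12, 2.14 and 2.73 CPM in intact and 0.628, 0.123, 0.277 and 0.348 CPM in null differentiating libraries. It was lower without overlap in both, at -1.28 ± 0.36 (edgeR adjusted p = 0.0118) and -2.98 ± 0.40 (edgeR adjusted p = 2.9e-05). Adamts9 was lower in null proliferating cells by 0.71 ± 0.25 (edgeR adjusted p = 0.0387) on the log2 scale, from 50.7 ± 12.5 to 31.0 ± 0.605 CPM (SD, n = 4). The Adamts9 call was lost without any 1 of null proliferating replicates 1, 2, 3 or 4 or intact proliferating replicates 2, 3 or 4 (adjusted p 0.0644 to 0.126).

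Adamts1 and Adamts4 were the members of this group that rose in null proliferating cells. Adamts4 (chromosome 1, 171250129 to 171262267) had means of 44.2 ± 2.73 CPM in intact and 64.0 ± 11.3 CPM in null proliferating cells (SD, n = 4), at 0.54 ± 0.16 (edgeR adjusted p = 0.0175). In differentiating cells the means were 102 ± 27.4 and 44.3 ± 3.94 CPM, at -1.21 ± 0.16 (edgeR adjusted p = 3.4e-05), and neither pair of groups overlapped. The interaction was -1.74 ± 0.23 (edgeR adjusted p = 1.8e-04). The proliferating call was lost without null proliferating replicate 4 (adjusted p = 0.0644). Adamts1 had means of 63.2 ± 9.64 CPM in intact and 117 ± 27.9 CPM in null proliferating cells, at 0.89 ± 0.31 (edgeR adjusted p = 0.0350). This Adamts1 call was lost without any 1 of null proliferating replicates 1 or 4 or intact proliferating replicates 1, 2 or 3 (adjusted p 0.0529 to 0.106). Its fold change in differentiating cells was -0.02 ± 0.32 (edgeR adjusted p = 0.959), and it became 0.59 and was called (adjusted p = 0.0200) without intact differentiating replicate 1.

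Among the other ADAMTS proteases, 5 of 8 were lower and 1 higher in null proliferating cells, and 3 lower and 1 higher in null differentiating cells. Those lower in each condition include Adamts18 and Adamts19, which met the minimum only with the libraries of 1 group. Adamts12 (chromosome 15, 11064773 to 11349232), which cleaves cartilage oligomeric matrix protein, was at 19.1, 30.5, 30.7 and 38.6 CPM in intact proliferating libraries, against 1.92, 1.66, 1.498 and 0.539 CPM in null libraries. The groups were far apart, at -4.43 ± 0.52 (edgeR adjusted p = 1.5e-05). In differentiating cells they overlapped, at 5.95, 4.84, 1.98 and 3.06 CPM in intact and 5.998, 2.36, 2.70 and 9.65 CPM in null libraries (0.38 ± 0.45, edgeR adjusted p = 0.520, no call). Adamts18 (chromosome 8, 113697123 to 113849343), a protease of the developing eye and lung, had no counts in the 4 null proliferating libraries and 0.872, 0.0541, 0 and 0.0900 CPM in intact ones. With a floor of 3 counts, taken for the 4 libraries together, it was at least 8.78-fold lower, most of it from intact replicate 1. This Adamts18 call was lost without any 1 of null proliferating replicates 1, 2, 3 or 4 or intact proliferating replicate 1 (adjusted p 0.0653 to 0.237). In differentiating cells Adamts18 was at 15.5, 6.81, 7.9997 and 1.74 CPM in intact and 0, 0.0306, 0 and 0.0290 CPM in null libraries, with 2 against 987 counts over 4 libraries each, or 0.172% of the intact level (95% counting interval 0.0208 to 0.622%).

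Adamts19 (chromosome 18, 58835992 to 59053682) was at 0.775, 2.76, 4.42 and 3.51 CPM in intact proliferating libraries, against 0.105, 0, 0.125 and 0.142 CPM in null libraries, lower in every null library, at -4.75 as a description. After differentiation it was at 0.887, 0.372, 0.311 and 0.210 CPM in intact and 0, 0.0306, 0 and 0 CPM in null libraries, with 1 against 56 counts over 4 libraries each, or 1.51% of the intact level (95% counting interval 0.0376 to 8.78%). Adamts10 (chromosome 17, 33523646 to 33553782), which binds fibrillin, was at 55.4, 48.5, 50.6 and 49.2 CPM in intact proliferating libraries, against 17.2, 20.97, 21.7 and 15.9 CPM in null libraries, with all null libraries lower, at -1.43 ± 0.15 (edgeR adjusted p = 4.4e-06). Differentiating libraries held 40.1, 28.9, 28.2 and 28.9 CPM in intact and 28.3, 21.3, 18.4 and 21.2 CPM in null cells, where null replicate 1 overlapped the intact libraries, at -0.50 ± 0.14 (edgeR adjusted p = 0.0103). Adamts6 (chromosome 13, 104286518 to 104496695), the paralog of Adamts10, rose in null differentiating cells, from 10.3, 14.8, 13.5 and 15.1 CPM in intact to 27.7, 27.0, 31.7 and 29.3 CPM in null libraries without overlap, at 1.11 ± 0.11 (edgeR adjusted p = 1.5e-06). In proliferating cells it was at 28.3, 31.1, 32.4 and 29.7 CPM in intact and 38.6, 34.0, 36.4 and 35.0 CPM in null libraries and not called (0.25 ± 0.10, edgeR adjusted p = 0.0753).

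Adamts7, among the highest per length of the 71 genes, differed little, with a fold change of -0.29 ± 0.09 (edgeR adjusted p = 0.0179) in proliferating and 0.21 ± 0.09 (edgeR adjusted p = 0.0707) in differentiating cells. The former call was lost without any 1 of null proliferating replicates 1 or 4 or intact proliferating replicate 4 (adjusted p 0.0507 to 0.0668). Adamts16 rose in null proliferating cells (1.79 ± 0.61, edgeR adjusted p = 0.0300), with null libraries at 0.698, 1.60, 0.999 and 5.75 CPM. Replicate 4 was the highest of these, and the call was lost without any 1 of null proliferating replicate 4 or intact proliferating replicates 1, 2, 3 or 4 (adjusted p 0.0502 to 0.259), with a fold change of 0.71 without null proliferating replicate 4. Adamts17 was called in neither condition (0.60 and -0.40).

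Adamtsl3 (chromosome 7, 82335399 to 82614450), an ADAMTS-like glycoprotein without protease activity, had the lowest fold change of the 71 genes in proliferating cells. It was at 8.33, 18.5, 17.0 and 17.8 CPM in intact proliferating libraries, against 0, 0.0617, 0 and 0.0567 CPM in null libraries. That is 3 against 1278 counts over 4 libraries each, or 0.187% of the intact level (95% counting interval 0.0385 to 0.548%). In differentiating cells it was at 1.37, 2.16, 1.98 and 3.12 CPM in intact and 0.139, 0.245, 0.554 and 0.174 CPM in null libraries, which did not overlap, at -2.86 ± 0.44 (edgeR adjusted p = 8.7e-05), or -3.49 without null differentiating replicate 3. Adamtsl1 (chromosome 4, 85513852 to 86428390), also called punctin, was at 1.94, 1.03, 0.783 and 0.405 CPM in intact proliferating libraries, against 0.209, 0, 0.0832 and 0 CPM in null libraries, and at 4.32, 2.35, 3.53 and 1.56 CPM in intact and 1.15, 1.10, 1.13 and 1.30 CPM in null differentiating libraries. Null libraries were lower in both, at -3.68 ± 0.72 (edgeR adjusted p = 8.5e-04), or -5.05 without null proliferating replicate 1, and -1.32 ± 0.49 (edgeR adjusted p = 0.0386). The differentiating call was lost without any 1 of null differentiating replicates 1, 2, 3 or 4 or intact differentiating replicates 1 or 3 (adjusted p 0.0685 to 0.0936).

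**Figure D4:**
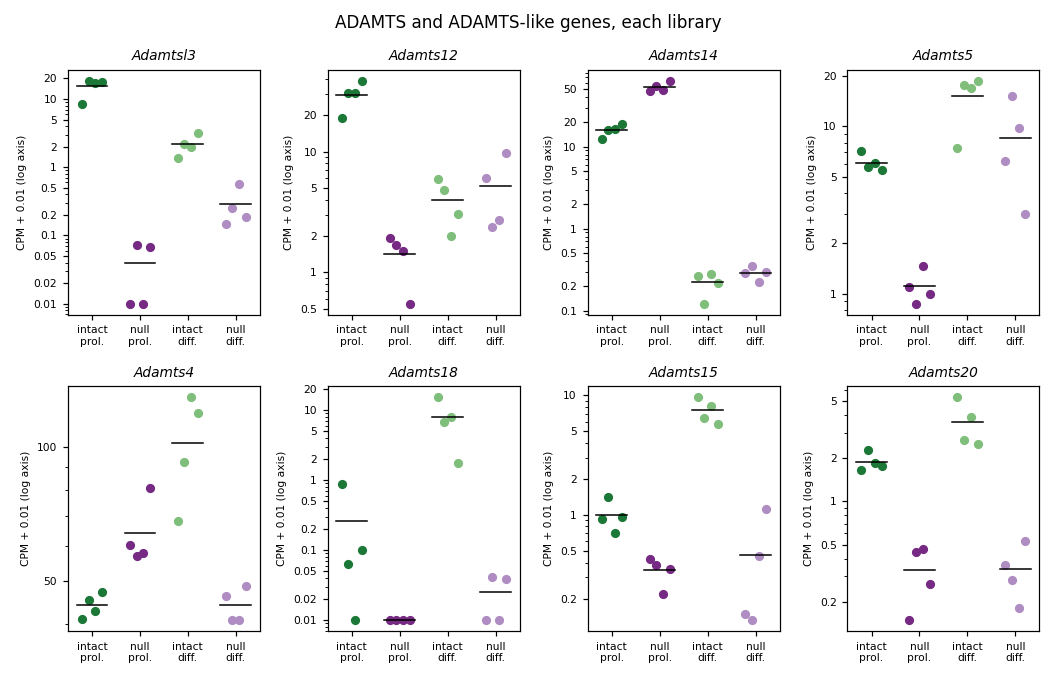
CPM + 0.01 (y axis, log scale, a separate range per panel) of 8 ADAMTS and ADAMTS-like genes in each library for the 4 groups (x axis; prol., proliferating; diff., differentiating), with points for libraries and lines for group means. Adamtsl3, Adamts15 and Adamts20 lie lower in null cells in both conditions, Adamts12 and Adamts5 overlap between genotypes in differentiating cells, and Adamts4 is higher in null proliferating and lower in null differentiating cells.

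Genes that make, bind or cut these matrix proteins were read from 5 lists, beside the shares of all genes given above. Of the lecticans, link proteins and their partners that ADAMTS proteases act on, 4 of 10 were lower in null proliferating and 6 of 10 in null differentiating cells, and none was higher. Acan, which encodes aggrecan, fell by 4.62 ± 0.54 (edgeR adjusted p = 1.0e-05) in proliferating and by 1.73 ± 0.40 (edgeR adjusted p = 0.00214) in differentiating cells on the log2 scale. Vcan, the gene of versican, fell by 1.20 ± 0.11 (edgeR adjusted p = 2.3e-06) and 1.10 ± 0.11 (edgeR adjusted p = 2.9e-06). Reln, the gene of reelin, was lower in both (-3.10 and -3.49), as was Tnr, the gene of tenascin-R (-2.13 and -1.22), and the link protein gene Hapln2 was lower in differentiating cells (-3.29).

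Of 24 collagen assembly and crosslinking genes tested, 8 were higher and 4 lower in null proliferating and 3 higher and 6 lower in null differentiating cells, and the median fold changes were -0.04 and -0.27. P4ha2, a collagen prolyl 4-hydroxylase subunit, was lower in both conditions, at -1.30 ± 0.25 (edgeR adjusted p = 8.7e-04) and -1.52 ± 0.24 (edgeR adjusted p = 1.1e-04). Loxl2, a lysyl oxidase that crosslinks type IV collagen, was lower in both, at -3.19 ± 0.52 (edgeR adjusted p = 2.2e-04) and -2.30 ± 0.58 (edgeR adjusted p = 0.00403), as was Tll1, a procollagen C-proteinase, at -2.76 ± 0.93 (edgeR adjusted p = 0.0180) and -4.498 ± 0.54 (edgeR adjusted p = 9.3e-06). Mia3, which loads procollagen into transport carriers, and P3h1, a prolyl 3-hydroxylase, were slightly higher in proliferating cells (0.24 and 0.47), while its relatives P3h2 and P3h3 were lower in differentiating cells (-1.80 and -0.96).

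Matrix receptors were higher more often than lower, with 9 higher and 5 lower of 23 in proliferating and 12 and 5 in differentiating cells. Itga2, the alpha chain of a collagen-binding integrin, was higher in null cells in both conditions, at 2.53 ± 0.31 (edgeR adjusted p = 1.9e-05) and 2.90 ± 0.31 (edgeR adjusted p = 4.1e-06). Itga9 was lower in both, at -1.60 ± 0.26 (edgeR adjusted p = 2.5e-04) and -2.72 ± 0.27 (edgeR adjusted p = 2.0e-06). Dag1, the gene of dystroglycan, which binds laminin, rose by 0.60 in proliferating and 0.47 in differentiating cells, and Itgav by 0.90 and 1.08. Of the partners of the αv chain, Itgb5 rose by 0.31 and 1.64, and Itgb8 rose by 1.55 in differentiating cells.

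Among 21 other matrix proteases and inhibitors, 4 were higher and 6 lower in proliferating and 9 higher and 3 lower in differentiating cells. The proprotein convertases Pcsk5 and Pcsk6 were lower in both, Pcsk5 at -4.08 ± 0.22 (edgeR adjusted p = 1.8e-08) and -4.40 ± 0.21 (edgeR adjusted p = 5.4e-09) and Pcsk6 at -2.52 and -2.52, whereas Furin, the convertase that activates many ADAMTS proteases, was higher in both (0.58 ± 0.07, edgeR adjusted p = 3.0e-05 and 0.27 ± 0.07, edgeR adjusted p = 0.00684). Mmp16, a membrane-bound metalloproteinase, was lower in both (-2.43 and -3.05), and the inhibitor gene Timp4 was higher in both (0.99 and 2.54). Of 30 other matrix and matricellular genes, 7 were higher and 9 lower in proliferating and 7 higher and 15 lower in differentiating cells. Thbs2, a thrombospondin gene, was higher in both conditions (3.18 and 2.41), and Thbs4 was lower in both (-4.40 and -4.41), as was Fbln2 (-0.97 and -2.31). Thbs1 was higher in proliferating (0.78) and lower in differentiating null cells (-2.77). Vwa1, whose product binds perlecan, and Emilin1, a glycoprotein of elastic fibres, rose in proliferating cells (3.499 and 1.47), and Tnc and Npnt, for tenascin-C and nephronectin, fell in differentiating cells (-2.24 and -2.53).

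The differentiating and the proliferating state were compared within each genotype, in comparisons that share their libraries with the genotype comparisons. In intact cells 41 of the 71 were higher and 22 lower after 3 days, where 36.7% and 35.3% of all genes were called higher and lower. In null cells 26 were higher and 21 lower, where 34.6% and 34.4% of all genes were. Without the 11 genes that met the minimum only with the libraries of 1 group, the other 60 split into 32 higher and 21 lower in intact and 24 higher and 19 lower in null cells. Collagens were mostly higher, with 24 of 35 higher and 5 lower in intact and 20 higher and 5 lower in null cells. Laminins were 4 higher and 5 lower of 10 in intact cells, and 0 higher and 6 lower in null cells. ADAMTS proteases were 8 higher and 9 lower of 18 in intact and 2 higher and 8 lower in null cells. These family counts include the 11 genes. Lama3 and Lamc3, among the 4 laminins higher in intact cells, met the minimum only with the intact differentiating libraries. Their rise there was thus built into the choice. The same holds for Col4a3, Col14a1 and Col15a1 among the collagens and for Adamts2 and Adamts18 among the proteases.

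The largest fall upon differentiation was that of Adamts14, at -6.18 ± 0.22 (edgeR adjusted p = 8.1e-12) in intact and -7.58 ± 0.21 (edgeR adjusted p = 4.9e-12) in null cells. Lama5 fell by 2.69 ± 0.18 (edgeR adjusted p = 8.4e-09) and 1.92 ± 0.18 (edgeR adjusted p = 2.0e-07), Hspg2 by 2.46 ± 0.24 (edgeR adjusted p = 3.7e-07) and 2.48 ± 0.24 (edgeR adjusted p = 3.0e-07), and Col18a1 by 3.22 ± 0.36 (edgeR adjusted p = 1.7e-06) and 4.12 ± 0.38 (edgeR adjusted p = 1.8e-07) on the log2 scale in intact and null cells. These are basement membrane genes, as are Col4a2 and Nid1, which rose in both genotypes: Col4a2 by 2.18 ± 0.61 (edgeR adjusted p = 0.00501) and 2.29 ± 0.76 (edgeR adjusted p = 0.0137), and Nid1 by 2.30 ± 0.37 (edgeR adjusted p = 5.6e-05) and 2.19 ± 0.45 (edgeR adjusted p = 4.5e-04). The Col4a2 call in null cells was lost without null differentiating replicate 4 (adjusted p = 0.0562). Its rise in intact cells was 1.42 without intact differentiating replicate 1, and that of Nid1 in null cells 2.82 without null proliferating replicate 4. Type IX and XI collagens also rose, Col9a1 by 3.85 ± 0.43 (edgeR adjusted p = 1.5e-06) in intact and 6.13 ± 0.60 (edgeR adjusted p = 3.2e-07) in null cells, and Col11a2 by 4.08 ± 0.47 (edgeR adjusted p = 2.2e-06) and 3.91 ± 0.49 (edgeR adjusted p = 4.8e-06). In intact cells these were 4.54 without intact proliferating replicate 1 for Col9a1 and 5.16 without intact proliferating replicate 1 for Col11a2.

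Some rises were called in intact cells and not in null cells. Lama2 rose in intact cells by 3.49 ± 0.67 (edgeR adjusted p = 2.5e-04) and had a response of -0.45 ± 0.95 (edgeR adjusted p = 0.681) in null cells, a difference that was itself called (interaction -3.94 ± 1.16, edgeR adjusted p = 0.0231). That call was lost without null proliferating replicate 1 (adjusted p = 0.0959), and the interaction was between -5.22 and -3.34 without null proliferating replicate 1 or null differentiating replicate 4. Adamts15 rose by 2.92 ± 0.48 (edgeR adjusted p = 6.4e-05) in intact cells and stood at 0.45 ± 0.55 (edgeR adjusted p = 0.475) in null cells (interaction -2.47 ± 0.73, edgeR adjusted p = 0.0242). The Adamts15 interaction call was lost without null proliferating replicate 1 (adjusted p = 0.0549), and its value was -3.33 without null differentiating replicate 4. For Col4a3 the response was 3.99 in intact cells, as a description, or 5.61 without intact proliferating replicate 1, and 1.49 ± 0.93 (edgeR adjusted p = 0.150) in null cells. Fn1 rose in intact cells by 1.41 ± 0.50 (edgeR adjusted p = 0.0203), where replicate 1 stood apart. The call was lost without any 1 of intact proliferating replicates 2 or 3 or intact differentiating replicate 1 (adjusted p 0.0557 to 0.220). No interaction was called for Col4a3 or Fn1, so a difference between the genotypes in their response is not shown.

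The genotype effect differed between conditions in 25 of the 71 genes, 14 with a higher and 11 with a lower value in differentiating cells, where 12.7% and 9.93% of all genes were called (22.7% in either direction). Without the 11 genes that met the minimum only with the libraries of 1 group, the other 60 had 14 interactions called higher and 9 called lower. This interaction, the effect in differentiating minus that in proliferating cells, was highest for Adamtsl3 (5.995 ± 0.85, edgeR adjusted p = 2.2e-04), Adamts12 (4.81 ± 0.68, edgeR adjusted p = 2.7e-04) and Col28a1 (4.73 ± 0.78, edgeR adjusted p = 7.9e-04). For Adamtsl3 and Adamts12 the null level was far below intact in proliferating cells and closer to it in differentiating ones, and Col28a1 was higher in null cells after differentiation. The lowest values were those of Lama3 (-5.96, as a description), Col1a1 (-4.48 ± 0.82, edgeR adjusted p = 0.00151) and Lama2. Lamc1 (-0.98 ± 0.19, edgeR adjusted p = 0.00231) was higher in null proliferating cells and not called in differentiating ones. Col5a2 (1.99 ± 0.48, edgeR adjusted p = 0.00879) and Adamts10 (0.93 ± 0.21, edgeR adjusted p = 0.00499) were lower in null cells in both conditions and closer to intact in the differentiating state. With 1 library left out, the value for Adamtsl3 was between 5.36 and 6.79 without null proliferating replicate 4 or null differentiating replicate 3, that for Col28a1 5.61 without null proliferating replicate 4, that for Lama3 -7.35 without intact proliferating replicate 1, that for Col1a1 -3.69 without intact differentiating replicate 1 and that for Col5a2 1.38 without null differentiating replicate 4.

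**Figure D5:**
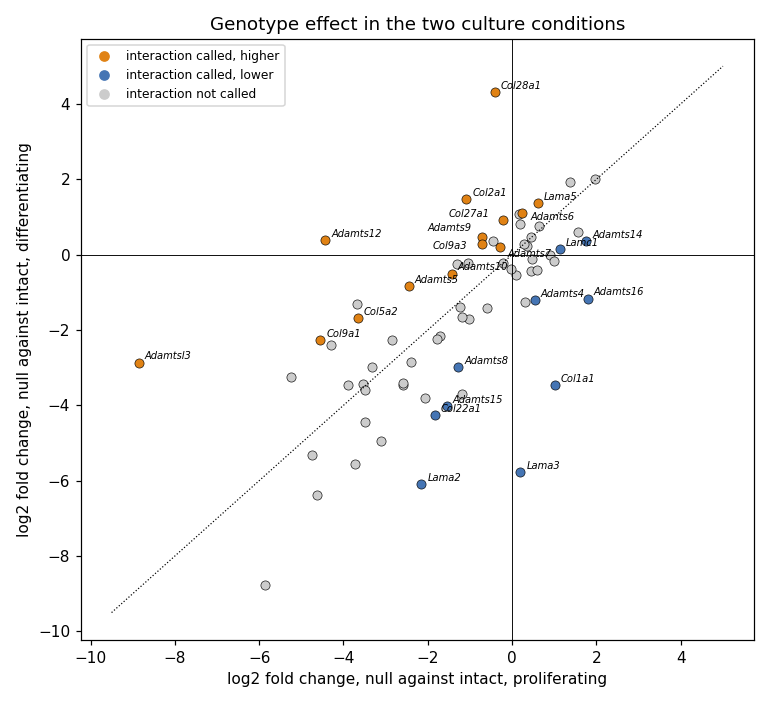
Log2 fold change of null against intact cells in proliferating (x axis) and differentiating cells (y axis) for 70 of the 71 genes, with a dotted line of equal effects. Coloured and named points are the 24 of these genes with an edgeR adjusted p under 0.05 for the interaction (orange higher, 14 genes, and blue lower, 10 genes, in differentiating cells). Lama3, coloured by the same rule, is given as a description. In the lower left lie the 27 genes called lower in both conditions, where 9.86% of all genes were. Of these, Adamts2, Adamts18, Adamts19, Col14a1 and Col19a1 met the minimum only with the libraries of 1 group.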

How the data were processed

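The authors counted reads per gene for 16 libraries of polyadenylated RNA, read as 75 bp pairs, with bcl2fastq and featureCounts on mm10, per the submitters' processing notes. Neither aligner, annotation, tool versions nor use of strand are stated in the labels, so overlapping and antisense genes cannot be told apart. The deposited values are raw counts for 27179 genes, of 16.8 to 47.9 M per library, and symbols and positions came from RefSeq (GRCm38.p6).

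Counts were tested with edgeR 4.0.16 in R 4.3.3 by the quasi-likelihood test over all 16 libraries, with 1 mean per group, filterByExpr at a minimum count of 10, TMM scaling and Benjamini-Hochberg adjustment over 15177 genes at 0.05. CPM are TMM-scaled, and SE is the log2 fold change over the root of F. The test was checked on simulated data. Alternatives were library-size and RLE scaling, no filter, a minimum count of 50, DESeq2 1.42.0, only the libraries compared, replicate blocks, no intact replicate 1 and each library left out. Within a group, replicates are isolates of separate foetuses. With isolates from 4 foetuses per genotype, proliferating and differentiating libraries may share an isolate. The labels do not say which do, and the main fit had no block for isolate. Members and lists were chosen with earlier results of these data known. Library values are given for up to 3 called members per family and genotype contrast, by lowest adjusted p among those whose higher group averaged 1 CPM or more, and for Lama1, Lamb1, Lamc1, Nid1, Nid2, Hspg2, Fn1, Col4a1 and Col4a2. Those of Col3a1 and Adamts16 were added after they were seen. Other lists give up to 4 called genes per contrast by lowest adjusted p, plus Dcn and Lum. The values of 1 member are not reported here, though it remains in the counts.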

Additional observations from a re-analysis of the deposited data

Results flagged for a closer look

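In 19 of 180 sets of 4 libraries (45 genes in 4 groups), 1 library stood apart by Dixon's criterion at the 95% level, which chance gives in about 1 set in 20. Among intact differentiating libraries, replicate 1 lay above the others for Adamts10 (40.1 CPM), Fn1 (163 CPM) and Lamb1 (24.3 CPM), and replicate 1 lay below the others for Adamts5 (7.44 CPM), and replicate 3 lay below the others for Nid1 (9.90 CPM). Among intact proliferating libraries, replicate 1 lay above the others for Adamts18 (0.872 CPM), Adamts3 (63.4 CPM), Col1a1 (3.00 CPM), Col23a1 (2.13 CPM) and Lamb2 (88.7 CPM), and replicate 1 lay below the others for Adamtsl3 (8.33 CPM), and replicate 4 lay below the others for Col9a3 (43.8 CPM). Among null differentiating libraries, replicate 2 lay above the others for Adamts19 (0.0306 CPM, a single count with 0 in the other 3, where the criterion is met by construction), and replicate 3 lay above the others for Col16a1 (176 CPM), and replicate 4 lay above the others for Col25a1 (0.261 CPM). Among null proliferating libraries, replicate 1 lay above the others for Col12a1 (9.14 CPM), and replicate 3 lay above the others for Adamts8 (2.21 CPM), and replicate 4 lay above the others for Col23a1 (1.22 CPM) and Lamb1 (11.7 CPM).

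The genotype effect differed between proliferating and differentiating cells, by the edgeR interaction term, for 25 of the 71 genes, of which 24 are given here. The interaction, the log2 fold change in differentiating minus that in proliferating cells, was above 0 for Adamts5 1.62, Adamts9 1.17, Adamtsl3 5.995, Col9a1 2.28, Col9a3 0.99, Col27a1 1.13, Col2a1 2.56, Col5a2 1.99, Lama5 0.77, Col28a1 4.73, Adamts10 0.93, Adamts12 4.81, Adamts6 0.86 and Adamts7 0.50. It was below 0 for Adamts14 -1.41, Adamts15 -2.47, Adamts4 -1.74, Adamts8 -1.70, Col22a1 -2.43, Col1a1 -4.48, Lama2 -3.94, Lama3 -5.96, Lamc1 -0.98 and Adamts16 -2.96. No library left out ended the interaction call of Adamts14, Adamts4, Adamtsl3, Col22a1, Col9a3, Col1a1, Col27a1, Col5a2, Lamc1, Col28a1, Adamts10, Adamts12, Adamts16, Adamts6 and Adamts7. The value of Lama3 is a description, since it met the count minimum through the intact differentiating libraries alone. The call was lost without null proliferating replicate 1 for Adamts15 and Lama2. For Adamts5 it was lost without any 1 of null proliferating replicates 1, 2, 3 or 4 or intact proliferating replicates 1, 2, 3 or 4 or null differentiating replicates 1, 2 or 3 or intact differentiating replicates 1, 2 or 3. For Adamts8 it was lost without any 1 of null proliferating replicate 3 or intact proliferating replicates 2 or 3 or null differentiating replicates 2, 3 or 4 or intact differentiating replicate 1. For Adamts9 it was lost without any 1 of null proliferating replicate 1 or intact proliferating replicate 4 or null differentiating replicate 3. For Col9a1 it was lost without any 1 of null proliferating replicates 1, 2, 3 or 4 or intact proliferating replicates 1 or 3 or null differentiating replicates 1, 2, 3 or 4 or intact differentiating replicates 1, 2 or 3. For Col2a1 it was lost without any 1 of null proliferating replicates 1 or 2 or intact proliferating replicate 1 or null differentiating replicate 4. For Lama5 it was lost without any 1 of null proliferating replicates 1, 2 or 3 or intact proliferating replicates 2, 3 or 4 or null differentiating replicates 3 or 4 or intact differentiating replicates 1 or 4.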

How the results depend on the processing

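Under the other settings, the counts of matrix genes called lower in null cells stayed within 1.5 times those reported. The 13 called higher in proliferating cells ranged from 7 to 12 when 1 library was left out at a time (7 without null proliferating replicate 4 or intact proliferating replicate 2, and 8 without intact proliferating replicate 3 or 4). The 41 called higher upon differentiation in intact cells became 26 with a minimum count of 50, where fewer genes were tested. The Adamts1 genotype effect in differentiating cells, -0.02, was 0.60 without replicate 1 of both intact groups and ranged from -0.25 to 0.59 with 1 library left out, and the cause was not tested. Of the single-gene values under an alternative, 5899 kept their direction and side of the threshold, 278 lost a call, 82 gained one and 2 reversed, both for Adamts1.

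DESeq2 called 13 higher and 35 lower in proliferating and 10 higher and 36 lower in differentiating null cells. With the replicate number as a block the genotype counts were 11 higher and 34 lower in proliferating and 12 higher and 36 lower in differentiating cells, and the response to differentiation stood at 39 higher and 22 lower in intact and 25 higher and 20 lower in null cells. With each genotype and replicate number as a block, the response was 36 higher and 22 lower in intact and 27 higher and 19 lower in null cells. The interaction was then called higher in 12 and lower in 10 members. The replicate numbers were not taken as pairing the libraries, since same-numbered intact libraries deviated together with r of 0.126, 0.123, -0.231 and 0.117 and other pairings with -0.106 to 0.0631. Genes with few counts have wide counting intervals, as for Col14a1 in null proliferating cells at 0.112 to 29.9% of the intact level.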
